A study of Mus musculus with 6 samples.

Results

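A set of 10 genes that glucocorticoid hormones are known to induce in many tissues was followed in colonic epithelial cells with and without the glucocorticoid receptor. They are Tsc22d3, Zbtb16, Cebpb, Cebpd, Zfp36, Ddit4, Cdkn1c, Errfi1, Lpin1 and Glul, chosen by name, and all 10 were found among the 23725 gene rows of the deposited table and passed the filter on low values that left 12837 genes. The receptor, encoded by Nr3c1, is a transcription factor that enters the nucleus once it binds hormone and raises the transcription of genes near its binding sites. In the gut epithelium, which also makes glucocorticoids locally, it is known for restraining inflammation and for promoting ion absorption and barrier function. The 10 genes carry out part of that programme elsewhere: they encode regulators of transcription and mRNA decay, brakes on growth signalling and the cell cycle, and a pair of metabolic enzymes.

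The study compared colonic epithelial cells, enriched on a Percoll gradient without culture, from mice on a C57BL/6J background. The wild-type group had 3 libraries, named wild type 1 to 3 here, and the knockout libraries are named knockout 1 to 3. The knockout group had the genotype B6-Cg-Nr3c1-Vil-Cre/ERT2 (Nr3c1IEC-/-), in which a tamoxifen-activated Cre recombinase is driven by the villin promoter of intestinal epithelium. In both groups, wild type included, tamoxifen was injected into the peritoneum on 5 days in a row and cells were taken on day 7 after the first dose. The labels do not say whether wild-type animals carried the transgene, nor give age or sex, and they do not state that each library is a separate animal, so p-values measure only the spread between these libraries.

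Libraries held 10089313 to 12030844 recovered reads. Nr3c1 stood at 1120 and 967 normalized reads in wild type 1 and 2, at 197 in the library labelled wild type 3, and at 145, 123 and 175 in the knockout libraries (two-sided exact permutation p = 0.1, the smallest that 3 against 3 libraries allow). So at Nr3c1 the library labelled wild type 3 contradicted its own label, and the genes of the 10 that passed the test are given with it and without it. Epithelial markers were abundant in all libraries, with Epcam between 18255 and 21874 normalized reads, and of 14 such markers 2 rose and 4 fell. Of all tested genes 15.0% rose and 15.4% fell. Myeloid markers moved with the groups: 11 of 15 rose, and their summed level was 701 to 1373 in wild type and 3645 to 8979 in knockout libraries. The summed level of 11 T cell and lymphocyte markers was 87.0 to 153 against 203 to 503, and 2 of 4 tested rose. Those that rose were Cd52 and Ptprc, and all 4 tested had a log2 change above 0. Cd3e and Cd3d, at or below 7.34 in every library, were under the filter and not tested. The sums of 11 fibroblast and smooth muscle markers overlapped, at 678 to 1226 against 910 to 2710, and 1 of 8 tested rose. Those of 6 B and plasma cell markers also overlapped, at 11.7 to 78.3 against 51.7 to 185, and 0 of 1 tested rose. Endothelial markers summed to 46.9 to 51.9 against 22.8 to 49.6, with Cdh5, Tek and Emcn at 0 in the wild-type libraries, and 0 of 2 tested passed. The part of these cells in the results below was not tested, and in bulk RNA fewer cells of a type and less RNA per cell cannot be told apart.

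Loss of the receptor was not accompanied by a general fall of its classic target genes. Tsc22d3 and Errfi1 fell, Ddit4 and Cdkn1c rose, and the other 6 did not pass the test (limma, Benjamini-Hochberg adjusted p under 0.05 over all 12837 genes). Of all tested genes 30.5% passed, 15.0% upward and 15.4% downward, so 4 of 10 is a share near the background. The log2 change, always knockout minus wild type on log2(value + 1), was above 0 for 5 genes and below 0 for 5, with a median of -0.08 against 0.01 over all tested genes. When 1 library was left out, the share of all genes that passed was 15.0% without wild type 1, 15.3% without wild type 2, 25.1% without the library labelled wild type 3, and 25.1%, 28.1% and 25.8% without knockout 1, 2 and 3. In 4 of the 10 the 3 wild-type and 3 knockout libraries did not overlap, which held for 50.7% of all tested genes.

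**Figure D1:**
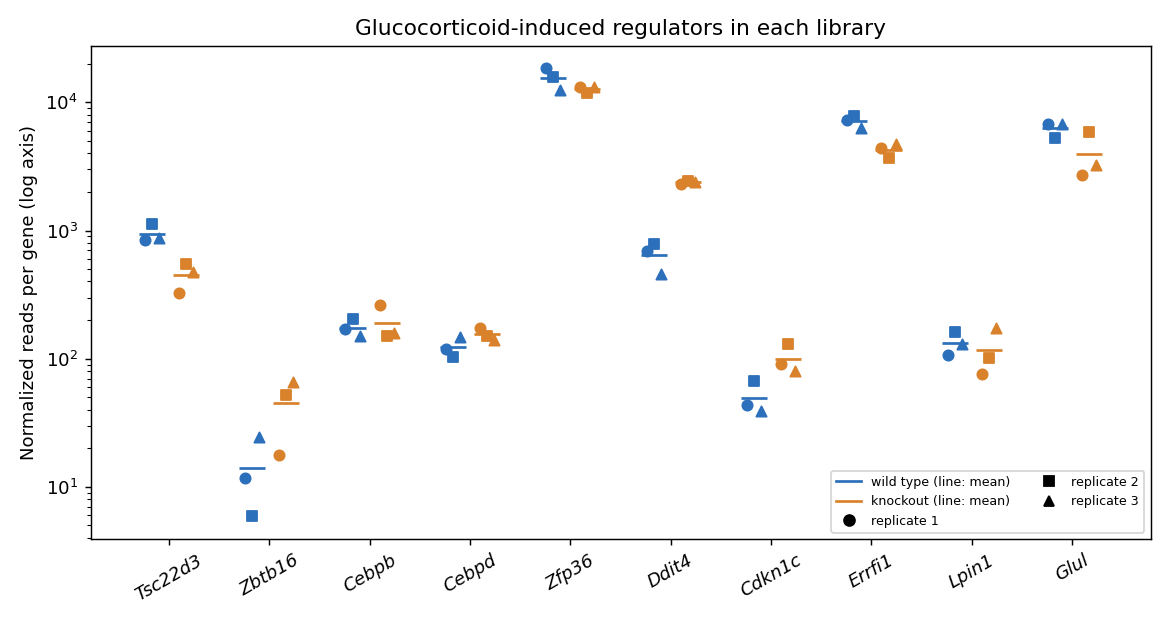
Normalized reads per gene (vertical log axis) of the 10 glucocorticoid-induced regulators in each library, wild type in blue and knockout in orange, with a line at each group mean and a marker shape per replicate. The groups separate for Tsc22d3, Ddit4, Cdkn1c and Errfi1 and overlap for the other 6, and Zbtb16, Lpin1 and Glul spread most within the knockout group.

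Tsc22d3, on GRCm38 chromosome X from 140539528 to 140600659, encodes the leucine zipper protein GILZ, which binds and restrains NF-kB and AP-1 and is among the most widely used readouts of receptor activity. It had 837, 1124 and 871 normalized reads in wild type 1 to 3 and 323, 553 and 477 in knockout 1 to 3. Every knockout library was below every wild-type library, the lowest being knockout 1. The mean fell from 944 ± 156 to 451 ± 117 (SD, n = 3 each), 2.09-fold (log2 change -1.09, SE 0.21, limma adjusted p = 0.00905). Without the library labelled wild type 3 the log2 change was -1.14 (adjusted p = 0.0217). Although that library had little Nr3c1, its Tsc22d3 value lay between those of the other 2 wild-type libraries. Transcripts of Tsc22d3 begin at several starts and the counts are per gene, so which transcripts fell cannot be seen.

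The fall extended to the other genes of the family, which share the TSC22 dimerization domain and were not chosen as glucocorticoid targets. Tsc22d1, a partner of the family in growth control, went from 6446, 5879 and 4285 normalized reads to 1515, 2060.1 and 1375, a log2 change of -1.75 (SE 0.20, limma adjusted p = 0.00147) that was larger than that of Tsc22d3. Tsc22d2 fell from 761 ± 112 to 444 ± 150.2 (adjusted p = 0.041) and Tsc22d4 from 903 ± 79.7 to 694 ± 28.5 (adjusted p = 0.033). All 3 paralogs were thus lowered, and their groups did not overlap, which held for 50.7% of all tested genes. Of these calls only that of Tsc22d1 was left without wild type 1, without wild type 2, without the library labelled wild type 3 or without knockout 2. The call of Tsc22d2 was also lost without knockout 1 and that of Tsc22d4 without knockout 3, and the adjusted p over all settings reached 0.113 for Tsc22d2 and 0.127 for Tsc22d4.

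The RefSeq promoter table for GRCm38.p6 has a window, 250 bases before to 50 after a transcription start, for 7 of the 10 genes, 10 windows in all. Each was searched on both strands for the glucocorticoid response element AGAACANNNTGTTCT, a palindrome bound by a receptor dimer, and for its 6-base arm AGAACA, which overlaps the longer motif. None of the 10 windows held the full element, which 3 of 32851 windows of the same length hold (0.00913%). The arm was in 2 of the 10, against 19.0% of all windows, once at Tsc22d3 and once at Lpin1. The bases of the window that lie before the annotated gene are shown for these, with the arm in capitals, and for Ddit4, the gene with the smallest adjusted p of the 10, where no letters are in capitals. They are chrX:140600660-140600772, chr12:16610967-16611216 and chr10:59951835-59952020 in GRCm38.p6, all on the minus strand and printed 5′ to 3′.
Tsc22d3: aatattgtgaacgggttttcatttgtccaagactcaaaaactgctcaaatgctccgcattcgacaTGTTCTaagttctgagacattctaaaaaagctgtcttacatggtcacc
Lpin1: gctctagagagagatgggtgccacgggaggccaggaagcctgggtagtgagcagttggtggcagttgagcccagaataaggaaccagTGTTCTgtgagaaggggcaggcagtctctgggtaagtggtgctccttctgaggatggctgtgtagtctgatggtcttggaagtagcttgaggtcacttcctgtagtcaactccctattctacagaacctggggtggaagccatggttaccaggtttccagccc
Ddit4: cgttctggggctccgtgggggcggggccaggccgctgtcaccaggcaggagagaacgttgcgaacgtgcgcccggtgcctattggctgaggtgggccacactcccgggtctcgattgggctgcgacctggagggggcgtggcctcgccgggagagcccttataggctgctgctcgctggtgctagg
The arm begins 185 bases before the Tsc22d3 start at 140600522, the most upstream of those with a window, and 163 before the start of Lpin1. In both cases it reads TGTTCT. One of these genes was lowered and the other did not pass the test. A match is a description of the letters in this window and not a binding site. The 2 other windows of Tsc22d3 and those of Cebpb, Zfp36, Errfi1 and Glul held neither motif. Cdkn1c, Cebpd and Zbtb16 have no entry.

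Zbtb16 (chromosome 9, 48654297 to 48836222) encodes PLZF, a BTB zinc finger repressor that glucocorticoids and progestins induce strongly in many cells and that also marks innate-like lymphocytes. It was the lowest of the 10, at 11.7, 5.87 and 24.6 normalized reads in wild type and 17.8, 51.7 and 65.9 in knockout libraries. Knockout 2 and 3 were above all wild-type libraries, while knockout 1 lay below the library labelled wild type 3. The mean was 14.0 ± 9.58 in wild type and 45.1 ± 24.7 in knockout, a log2 change of 1.63 whose 95% interval ran from 0.21 to 3.06 before adjustment (SE 0.61, limma adjusted p = 0.0791). The difference passed the test without the library labelled wild type 3 (log2 change 2.12, adjusted p = 0.0454), without knockout 1 (2.18, adjusted p = 0.0232) and with DESeq2 on recovered reads (1.68, adjusted p = 0.0304), within a range of 0.0232 to 0.222 over all settings. The summed myeloid and lymphocyte markers were higher in every knockout library than in any wild-type library. They were highest in knockout 1, the lowest knockout library for Zbtb16. The part of myeloid cells or lymphocytes in the level of Zbtb16 was not tested. Of the 6 BTB zinc finger paralogs examined, Bcl6, a repressor of germinal centre and inflammatory genes, rose from 52.4 ± 5.74 to 92.6 ± 22.9 (adjusted p = 0.0351) and Zbtb33, which binds methylated DNA, fell from 281 ± 28.7 to 189 ± 20.8 (adjusted p = 0.0216). Leaving out any 1 library other than knockout 2 ended the call of Bcl6 (adjusted p up to 0.113), as did leaving out wild type 2 or the library labelled wild type 3 for Zbtb33 (0.087 and 0.055). Zbtb7a, Zbtb7b, Zbtb20 and Zbtb32 did not pass, with log2 changes of 0.20, -0.15, -0.39 and -0.90. Zbtb32 passed only without wild type 1 (-1.26, adjusted p = 0.0416).

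Cebpb (chromosome 2, 167688915 to 167690418) and Cebpd (chromosome 16, 15887286 to 15891031) encode C/EBP transcription factors that drive acute-phase and metabolic genes and respond to inflammatory cytokines as well as to glucocorticoids. Cebpb had 171, 202 and 149 normalized reads in wild type and 260.0, 151 and 158 in knockout libraries. Knockout 1 stood above the rest, and the other knockout libraries lay within the wild-type range. Its log2 change was 0.09 with an interval from -0.46 to 0.63 (limma adjusted p = 0.792), and it turned to -0.016 when the library labelled wild type 3 was left out and to -0.16 with knockout 1 left out. Cebpd had 119, 103 and 148 in wild type and 174, 150.0 and 139 in knockout libraries. Knockout 3 fell below the library labelled wild type 3, so the groups overlapped, and the log2 change was 0.34 with an interval from -0.09 to 0.76 (adjusted p = 0.191).

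The related Cebpa, a driver of differentiation, stood at 433 ± 73.6 and 393 ± 24.3, and Cebpg, which pairs with other C/EBP proteins, at 827 ± 43.0 and 762 ± 52.0. Neither passed (limma adjusted p = 0.516 and 0.401), and Cebpe had no read in any library. Ddit3, the stress-induced C/EBP protein CHOP, fell from 679, 702 and 570.1 to 417, 359 and 393 normalized reads (log2 change -0.73, adjusted p = 0.00563). Acute-phase genes and other C/EBP targets nevertheless were high in the knockout libraries: all 9 tested of the 12 listed rose, beside 15.0% of all tested genes. The median log2 change of the 9 was 2.05. The number raised was also 9 with the filter at 50 and with no filter. Saa3, a serum amyloid gene, rose from 157 ± 35.5 to 683 ± 188.0 and Lcn2, the iron-binding lipocalin, from 2.64 ± 2.04 to 181 ± 140.0 (adjusted p = 0.00133 and 0.00149). Lcn2 was below the filter of 10 in every wild-type library, so it was tested only through the knockout libraries. Only 5 of the 9 passed when wild type 2 or knockout 3 was left out. One of the 9, Cd14, is also among the myeloid markers, which moved the same way. The myeloid markers had the same median log2 change, 2.05, which in both lists is that of Cd14.

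Zfp36 (chromosome 7, 28376784 to 28380253) encodes tristetraprolin, which binds AU-rich elements in inflammatory mRNAs and speeds their decay. It had 18424, 15862 and 12437 normalized reads in wild type and 13065, 11732 and 13135 in knockout libraries. The knockout libraries were close together, between or just below the wild-type values, with the library labelled wild type 3 the lowest of its group. The log2 change was -0.28 with an interval from -0.69 to 0.12 (SE 0.17, limma adjusted p = 0.243). Without the library labelled wild type 3 it was -0.44 (adjusted p = 0.0892).

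Both expressed paralogs of Zfp36, which bind the same elements, fell. Zfp36l1 went from 866, 944 and 647 normalized reads to 398, 465 and 501 (log2 change -0.84, SE 0.17, limma adjusted p = 0.00953). Zfp36l2 went from 3040, 3964 and 2904 to 1256, 1660 and 1751 (log2 change -1.09, SE 0.17, adjusted p = 0.00442). Neither gene had overlapping groups, as was the case for 50.7% of all tested genes. Both calls held with each library left out. Zfp36l3 had no read in any library. Of 18 AU-rich mRNAs that tristetraprolin is known to bind, 15 were tested. Of these 11 rose and 0 fell, beside 15.0% and 15.4% of all tested genes, with a median log2 change of 2.27. The number raised depended on the filter: it was 8 with the filter at 50 and 14 with no filter, and 0 fell in either. Genes low in wild type could pass the filter only through the knockout libraries, so these counts and the median are partly set by it. Cxcl2, a neutrophil chemokine, went from 98.0 ± 37.6 to 1684 ± 915, Ptgs2, the inducible cyclooxygenase, from 22.6 ± 5.23 to 253 ± 129.6 and Ccl3, a macrophage chemokine, from 5.91 ± 3.48 to 79.1 ± 25.7 (adjusted p = 0.00149, 0.00208 and 0.0028). Myeloid cells also make these 3 mRNAs, and the summed myeloid markers given above rose with them. Ccl3 was below the filter of 10 in every wild-type library, so it was tested only through the knockout libraries. Myc and Vegfa, AU-rich mRNAs of growth and vessel formation, did not pass (log2 change 0.18 and 0.40).

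**Figure D2:**
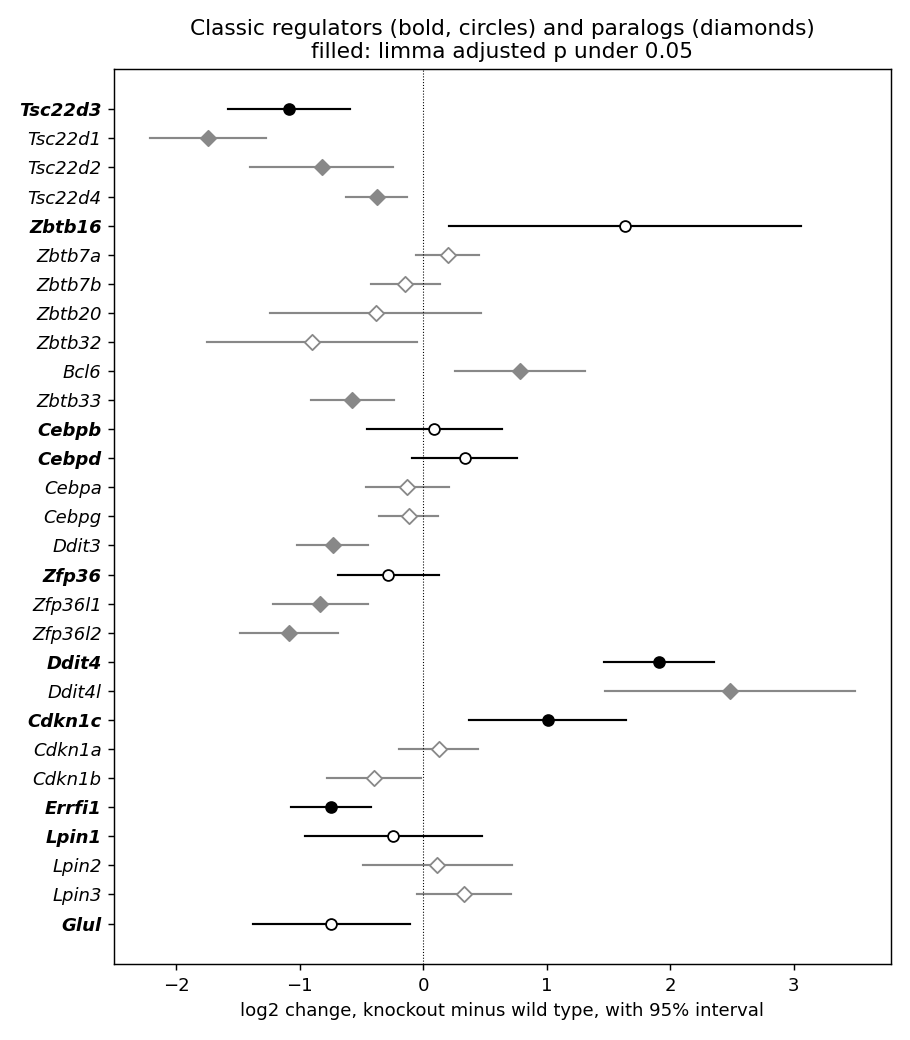
log2 change (horizontal axis, knockout minus wild type) with its 95% limma interval for the 10 classic regulators (bold, circles) and their tested paralogs (grey diamonds), filled where the adjusted p was under 0.05. The TSC22 genes and the Zfp36 paralogs lie to the left of 0, Ddit4 and Ddit4l lie farthest to the right, and the C/EBP genes other than Ddit3 span 0.

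Ddit4 (chromosome 10, 59949669 to 59951834) encodes REDD1, which inhibits the growth kinase complex mTORC1 and is induced by glucocorticoids, by low oxygen, by the stress factor ATF4 and by p53. It had 696, 787 and 458 normalized reads in wild type and 2309, 2419 and 2389 in knockout libraries. All knockout libraries lay close together and far above the wild-type ones, and the library labelled wild type 3, with little Nr3c1, was the lowest of all. The mean rose from 647 ± 169.9 to 2372 ± 56.7, 3.67-fold (log2 change 1.91, SE 0.19, limma adjusted p = 0.000919). The change was 1.68 on the log2 scale without the library labelled wild type 3 (adjusted p = 0.000845). The call held in all 16 other settings, with log2 changes from 1.68 to 2.07.

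Its paralog Ddit4l, REDD2, rose from 2.12, 1.96 and 1.82 to 15.7, 22.8 and 10.5 normalized reads (log2 change 2.49, SE 0.44, limma adjusted p = 0.00623), at a very low level. Ddit4l was below the filter of 10 in every wild-type library, so it was tested only because each knockout library reached it. Other brakes on mTORC1 did not rise with these genes. Of 11 tested brakes, Ddit4l among them, 1 rose, Ddit4l itself, and 1 fell, beside 15.0% and 15.4% of all tested genes. The gene that fell was Deptor, an mTOR-binding inhibitor, which went from 1758 ± 27.7 to 874 ± 373 (adjusted p = 0.0346). The call of Deptor was lost without any 1 of the wild-type libraries, and 3 genes of the list were lowered without knockout 3. With upper-quartile scaling or DESeq2 2 were lowered, and with the filter at 50, where Ddit4l was not tested, 0 were raised. The sestrin gene Sesn1, at 117 ± 33.7 and 55.3 ± 29.6, missed the threshold (adjusted p = 0.0539).

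Gene sets of other known inducers of Ddit4 were examined beside it. Of 16 hypoxia targets 10 rose and 0 fell, beside 15.0% and 15.4% of all tested genes, with a median log2 change of 0.93. Egln3, a prolyl hydroxylase that limits HIF, went from 298 ± 21.5 to 2264 ± 359, the mitophagy gene Bnip3 from 121 ± 22.5 to 743 ± 209 and the glycolytic gene Pgk1 from 5671 ± 992 to 14895 ± 925 (limma adjusted p = 5.48e-05, 0.000709 and 0.00124). Of 18 ATF4 targets 10 rose and 3 fell, with a median of 0.59. The serine and one-carbon enzyme gene Shmt2 rose from 215 ± 35.6 to 589.5 ± 85.3 (adjusted p = 0.00136). The 3 that fell were Atf4 itself, Atf3 and Ddit3, named after their values were seen, with log2 changes of -0.60, -0.90 and -0.73. The number of ATF4 targets raised was 5 without wild type 1, and 6 without wild type 2, knockout 1 or knockout 3. The part of either pathway in the rise of Ddit4 was not tested.

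Cdkn1c (chromosome 7, 143458339 to 143461050) encodes p57, an imprinted inhibitor of cyclin-dependent kinases. It had 43.5, 66.5 and 39.2 normalized reads in wild type and 91.2, 129 and 80.2 in knockout libraries. The groups did not overlap, with knockout 2 the highest. The mean rose from 49.7 ± 14.7 to 100.2 ± 25.8, 2.02-fold (log2 change 1.01, SE 0.27, limma adjusted p = 0.0292). This call depended on single libraries: the adjusted p was 0.0986 without wild type 1, 0.0772 without the library labelled wild type 3 and 0.0788 without knockout 2, in a range of 0.0108 to 0.0986 over all settings. The related inhibitors did not pass. Cdkn1a, encoding p21, which p53 and glucocorticoids induce, was at 4717 ± 382 and 5169.7 ± 729.6 (log2 change 0.13, adjusted p = 0.508), and Cdkn1b, encoding p27, at 545 ± 95.2 and 412 ± 57.1 (-0.40, adjusted p = 0.101).

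Errfi1 (chromosome 4, 150853919 to 150868892) encodes MIG6, which binds and inhibits the kinase domains of the EGF receptor family and is itself induced by EGF signalling. It had 7236, 7819.8 and 6350.4 normalized reads in wild type and 4367, 3680.5 and 4722 in knockout libraries. All knockout libraries were below all wild-type libraries, with little spread in either group. The mean fell from 7136 ± 739.9 to 4256 ± 529, 1.68-fold (log2 change -0.75, SE 0.14, limma adjusted p = 0.00792). The change was -0.83 on the log2 scale without the library labelled wild type 3 (adjusted p = 0.0124). Its call, like that of Tsc22d3, held in all 16 other settings.

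Among 12 other genes of EGF receptor signalling and its feedback inhibitors 3 rose and 5 fell, beside 15.0% and 15.4% of all tested genes. Egfr, encoding the receptor, rose from 357 ± 20.6 to 853 ± 247, and Spry4, a feedback inhibitor of receptor kinases, from 53.0 ± 8.03 to 114 ± 20.6 (limma adjusted p = 0.00506 and 0.00879). Lrig3, of a family of membrane proteins that modulate these receptors, fell from 1089 ± 123 to 362 ± 152 (adjusted p = 0.0079). The number lowered was 2 without wild type 1, 2 without wild type 2 and 3 without the library labelled wild type 3.

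Errfi1, Zfp36, Cebpb and Cebpd are also immediate early genes, which respond within minutes to growth factors and to tissue dissociation. Of 24 other immediate early genes 17 fell and 1 rose, beside 15.4% and 15.0% of all tested genes, with a median log2 change of -0.92. Egr2 fell from 579 ± 58.3 to 142 ± 23.2 and Klf2 from 855 ± 187 to 245 ± 68.5 (limma adjusted p = 0.000445 and 0.00191). The gene that rose was Ier3, at a log2 change of 1.65. Beside these, Errfi1 was lowered and Zfp36, Cebpb and Cebpd did not pass. The part of the response to dissociation was not tested.

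Lpin1 (chromosome 12, 16535669 to 16610966) encodes a phosphatidate phosphatase of triglyceride synthesis that is also a nuclear coregulator. It had 107, 161 and 131 normalized reads in wild type and 76.5, 101 and 175 in knockout libraries. Knockout 3 was the highest of all 6 and knockout 1 the lowest, so the groups overlapped fully. The log2 change was -0.24 with an interval from -0.96 to 0.47 (limma adjusted p = 0.568), and it was 0.019 without knockout 1. The paralogs Lpin2 and Lpin3 were more abundant and did not pass, at 670.4 ± 216 and 718 ± 193 for Lpin2 and 522 ± 57.1 and 662 ± 123 for Lpin3. Lpin3 passed without knockout 1 (log2 change 0.48, adjusted p = 0.036). Of 12 genes of triglyceride and phospholipid synthesis 3 rose and 2 fell, beside 15.0% and 15.4% of all tested genes. Dgat2, which makes the last step to triglyceride, rose from 609 ± 83.5 to 2252 ± 281 and the acyltransferase gene Agpat2 from 1586 ± 47.9 to 2772 ± 554, while Plpp3, a lipid phosphatase, fell from 63.8 ± 12.2 to 19.1 ± 4.27 (adjusted p = 0.000388, 0.00774 and 0.00463). The other gene that fell was Gpam, at a log2 change of -0.59, and 1 gene of the list was lowered without wild type 1, without any 1 of the knockout libraries, with quantile normalization or with no filter.

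Glul (chromosome 1, 153899944 to 153909723) encodes glutamine synthetase, which joins ammonia to glutamate and is induced by glucocorticoids in muscle and lung. It had 6747, 5263 and 6823 normalized reads in wild type and 2725, 5865 and 3226 in knockout libraries. Knockout 1 and 3 were below all wild-type libraries and knockout 2 lay among them. The mean was 6278 ± 879.8 in wild type and 3938 ± 1687 in knockout, a log2 change of -0.74 with an interval from -1.38 to -0.11 before adjustment (SE 0.27, limma adjusted p = 0.0751). The test was passed without knockout 2 (log2 change -1.07, adjusted p = 0.00554) and with quantile normalization (-0.87, adjusted p = 0.0459), within a range of 0.00554 to 0.192 over all settings.

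Around Glul, 4 of 12 genes of glutamine and glutamate metabolism fell and 2 rose, beside 15.4% and 15.0% of all tested genes. The glutamine carrier gene Slc1a5 fell from 1607 ± 255 to 714 ± 40.7 and the alanine transaminase gene Gpt2 from 350 ± 55.4 to 83.9 ± 34.2 (limma adjusted p = 0.0014 and 0.0034). Asns, which uses glutamine to make asparagine, rose from 333 ± 32.8 to 785 ± 177 (adjusted p = 0.00315). Without wild type 1, and likewise without wild type 2, the number lowered was 2. Slc38a2, an amino acid carrier, had a log2 change of 0.05 and did not pass.

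**Figure D3:**
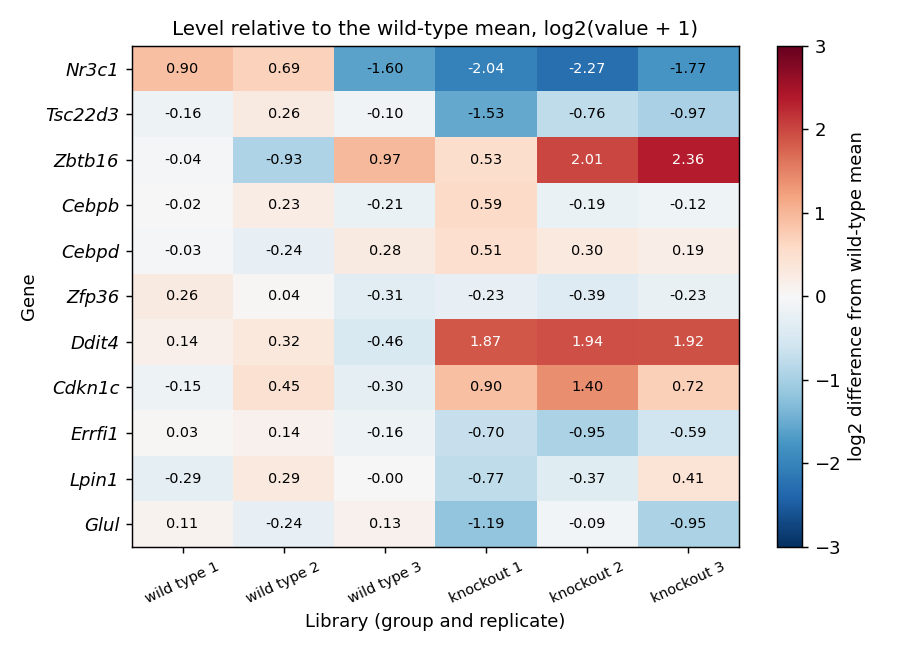
Level of Nr3c1 and the 10 regulators in each library (columns) as the difference in log2(value + 1) from the wild-type mean of that gene (colour and printed number). The library labelled wild type 3 resembles the knockout libraries at Nr3c1 (-1.60) but not at Tsc22d3 (-0.10) or Ddit4 (-0.46). It lies within their range at Zbtb16 (0.97), Cebpd (0.28), Zfp36 (-0.31) and Lpin1, and outside it at the other genes. Knockout 1 is the lowest at Tsc22d3 (-1.53) and Glul (-1.19).

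The library labelled wild type 3 did not share one pattern across the 10 genes. On the log2(value + 1) scale its value lay outside those of wild type 1 and 2 on the side of the knockout mean for 5 genes, outside on the other side for 3 and between them for 2. One of the 5 was Cebpb, whose knockout mean was only 0.016 below that of wild type 1 and 2 on this scale and above it in normalized reads. For Ddit4 it was 0.69 log2 units below the mean of the other 2 wild-type libraries, while the knockout mean was 1.68 above it. For Zbtb16 it was 1.46 above them, with the knockout mean 2.12 above. Within the knockout group the 10 genes also differed in spread. The highest knockout library exceeded the lowest 1.05-fold for Ddit4 and 1.12-fold for Zfp36, but 2.15-fold for Glul, 2.28-fold for Lpin1 and 3.70-fold for Zbtb16. Knockout 1 was the lowest of its group for 5 genes.

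Levels can be compared between genes only per length, here as normalized reads per kilobase of the exons joined over GENCODE M21 basic transcripts. Joined exons can be longer than the transcript expressed, which lowers the level per kilobase. For Zfp36, Cebpb and Cebpd they cover the whole annotated span of the gene. In wild type Zfp36 was highest, at 4488 ± 866 per kilobase, followed by Glul at 2248 ± 315 and Errfi1 at 2206 ± 229, which overlapped. Ddit4 at 369 ± 96.8 and Tsc22d3 at 341 ± 56.5 overlapped as well, then came Cebpb at 116 ± 17.7. Cebpd at 32.8 ± 6.06, Cdkn1c at 25.6 ± 7.56 and Lpin1 at 21.5 ± 4.38 overlapped from one to the next, and Zbtb16 was lowest at 2.66 ± 1.81. In the knockout libraries Ddit4 reached 1352 ± 32.3 per kilobase, in the range of Errfi1 at 1316 ± 164 and Glul at 1411 ± 604.

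For the 4 genes that passed, the most similar profiles over the 6 libraries were sought among 215 other tested genes of the lists, by Pearson correlation of log2(value + 1). These are descriptions, since all points share the 6 libraries and the difference between the groups. Tsc22d3 was most like Pck1, the gluconeogenic enzyme gene (r = 0.994), and Gpt2 (0.992). Ddit4 was most like Dgat2 (0.983) and P4ha1, a collagen prolyl hydroxylase gene of the hypoxia list (0.973). Cdkn1c was most like Lcn2 (0.959) and Zbtb7a (0.956), and Errfi1 was most like Plpp3 (0.997) and Ddit3 (0.982).

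Beyond the 10, a list of 34 other glucocorticoid-induced genes also held genes that moved in either direction. It was drawn up from general knowledge, with earlier results of these data known. Of the 29 tested 5 rose and 8 fell, beside 15.0% raised and 15.4% lowered of all tested genes, with a median log2 change of -0.15. Those that rose were Il1r2, the decoy receptor of interleukin-1, Anxa1, an anti-inflammatory annexin, Tat, tyrosine aminotransferase, the NF-kB inhibitor gene Tnfaip3 and Bcl6, of which all but Il1r2 and Bcl6 are named after their values were seen. Il1r2 went from 1.06, 5.87 and 7.29 to 249, 96.2 and 52.5 normalized reads (log2 change 4.48, SE 0.69, limma adjusted p = 0.00407) and is also expressed by neutrophils, whose markers are part of the myeloid list above. Its wild-type values were below the filter of 10, so it was tested only through the knockout libraries. Tnfaip3 passed although its groups overlapped. Among those that fell, Pdk4, the kinase that shuts pyruvate dehydrogenase, went from 859, 731 and 253 to 26.2, 29.0 and 7.64, with the library labelled wild type 3 between the others and the knockout (adjusted p = 0.00178). Sult1a1, a sulfotransferase gene, went from 4295, 3732 and 2598 to 38.8, 248 and 147 (adjusted p = 0.00169). Groups did not overlap for 50.7% of all tested genes. The other 6 that fell, also named after their values were seen, did so without overlap between the groups. Among them Sgk1, the kinase gene that promotes sodium absorption, had a log2 change of -1.64 (adjusted p = 0.0299), Rgs2, a regulator of G protein signalling, of -1.31 (adjusted p = 0.00506), Klf9, a Krüppel-like factor gene, of -0.64 (adjusted p = 0.0358) and Pck1 of -3.63 (adjusted p = 0.00713). The insulin signalling gene Irs2 and the receptor kinase gene Mertk had log2 changes of -0.88 and -1.47. The numbers raised and lowered were 2 and 5 without wild type 1, 2 and 4 without wild type 2, 3 and 9 without the library labelled wild type 3, and 2 and 8 without knockout 3.

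**Figure D4:**
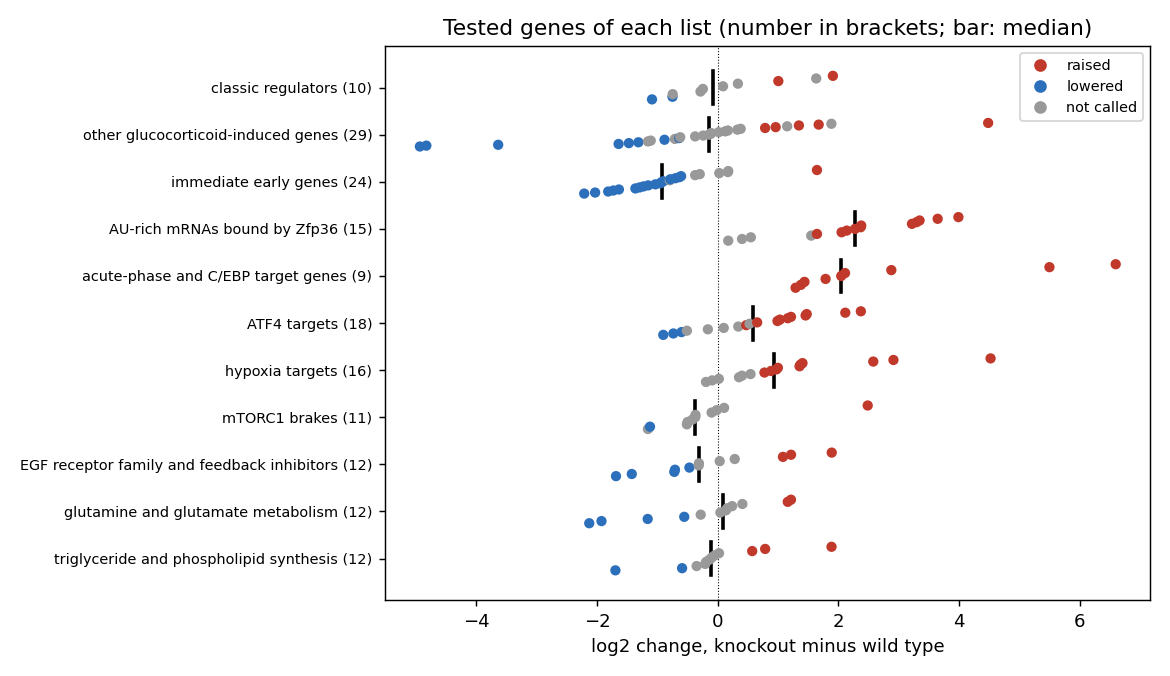
log2 change (horizontal axis) of each tested gene in the 10 regulators and the gene lists described, coloured by whether it was raised, lowered or not called at an adjusted p of 0.05, with a bar at each list's median. The medians of both glucocorticoid lists lie near 0 (-0.08 and -0.15), that of the immediate early genes at -0.92 and those of the AU-rich and acute-phase lists at 2.27 and 2.05.

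**Figure D5:**
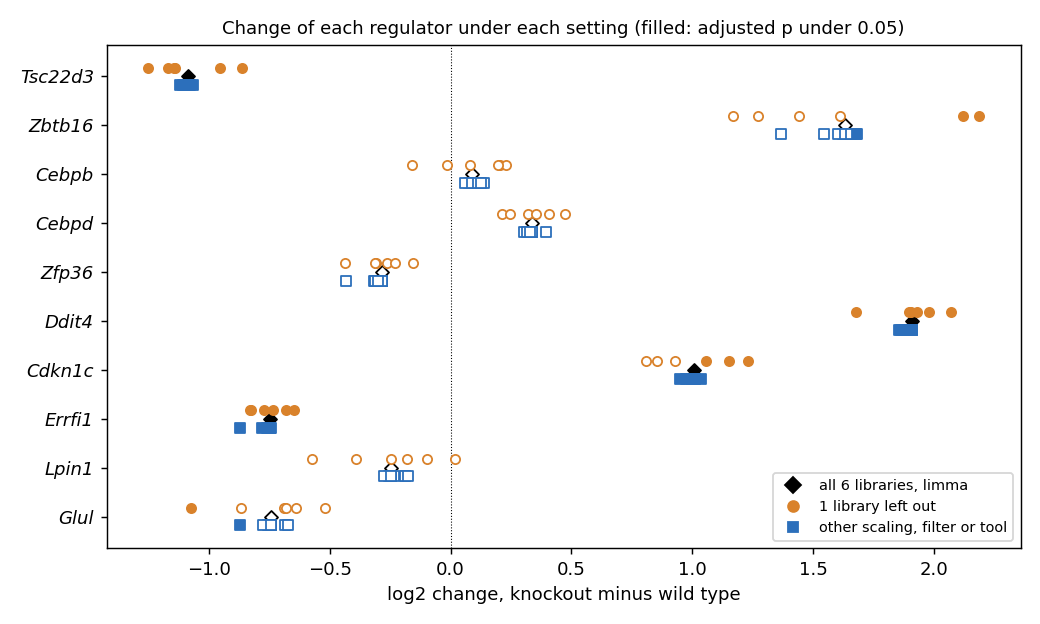
log2 change (horizontal axis) of each of the 10 regulators with all libraries (black), with 1 library left out (orange circles) and with another scaling, filter, prior or tool (blue squares), filled where the adjusted p was under 0.05. Tsc22d3, Ddit4 and Errfi1 stay filled throughout, Cdkn1c is open in 3 settings, and Zbtb16 and Glul are filled in 3 and 2 settings.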

How the data were processed

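RNA of 6 libraries, 3 per group, was sequenced as non-stranded mRNA libraries (TruSeq RNA v2), per the labels' protocols, so a read does not show which of 2 overlapping genes on opposite strands it came from. The deposited signal per gene and library is a read count that the authors normalized. The submitters' processing notes name FastQC, TopHat, DESeq2 and mm10 without versions. How reads were assigned to genes is not given in the sources used here. All values (100% within 0.001 of a whole number) were multiples of 1 step per column, so reads were recovered. Entrez numbers were paired with symbols through RefSeq GRCm38.p6 (23666 of 23725), and gene coordinates are from GENCODE M21 on GRCm38, of which mm10 is the browser's name.

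Differences were tested with limma 3.58.1 (R 4.3.3, trended prior) on log2(value + 1) for 12837 genes with at least 10 in 3 of 6 libraries. Benjamini-Hochberg adjustment ran over all of them, at a threshold of 0.05. A gene below 10 throughout 1 group was tested only if every library of the other group reached 10, so it could only be high there. A log2 change understates that of low genes. Means are of normalized reads, folds are ratios of means, and the fit was checked on simulated data. Alternatives were a pseudocount of 0.5 or 5, a filter at 50 or none, scaling by TMM, the upper quartile or quantiles, a robust prior, each library left out in turn, and count tests with DESeq2 1.42.0 and edgeR 4.0.16 on whole reads. From those reads edgeR called 3893 genes and DESeq2 4164, against 3910 with limma. The genes and lists were chosen with earlier results of these data known. Genes named are the 10, Nr3c1, their paralogs, up to 3 per list with the smallest adjusted p and the most similar profiles, and others are named after their values were seen or to show a marker's level. Of the named marker genes, only those that bear on a result are printed.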

Additional observations from a re-analysis of the deposited data

How the results depend on the processing

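No paired analysis was possible because the labels give the groups no shared replicate numbers. Of 159 values of the 10 genes under other settings, 148 kept their direction and side of the threshold. Those that turned direction, none of them past the threshold in any setting, were Cebpb with the library labelled wild type 3 left out (-0.016) or knockout 1 left out (-0.16), in a range from -0.16 to 0.23, and Lpin1 with knockout 1 left out (0.019), in a range from -0.57 to 0.019. With 1 library left out, 1923 to 3607 genes were called against 3910, the fewest when wild type 1 (1923) or wild type 2 (1960) was missing. Of the 10 genes 1 to 3 were raised and 2 to 3 lowered, with 1 raised without wild type 1 or knockout 2. Of the other glucocorticoid-induced genes 2 to 5 were raised and 4 to 9 lowered. The cause of these shifts was not tested, but each such fit has fewer libraries. Other scalings, filters, priors and tools gave 3328 to 4164 genes called and left the counts of the 10 genes and of the other glucocorticoid-induced genes within 1.5 times. Counts of other lists moved further: for the mTORC1 and glyceride lists as given above, to 1 T cell marker raised with the filter at 50, to 2 fibroblast and smooth muscle markers raised with no filter and to 1 endothelial marker lowered with quantile normalization. Zbtb16 was not tested with the filter at 50. The settings for the paralogs and for lists other than the glucocorticoid-induced genes were added after seeing the data. At the depth of these libraries Zbtb16 and Ddit4l rest on few reads.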
